A study of Arabidopsis thaliana with 12 samples.

Results

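The genes of the stomatal lineage described here are 10 genes of Arabidopsis thaliana that direct how epidermal cells of a leaf become stomata, and they were found in the data by their locus numbers. All 10 were among the 32678 genes of the count table: the transcription factors SPEECHLESS (SPCH, AT5G53210), MUTE (AT3G06120) and FAMA (AT3G24140), the receptors TOO MANY MOUTHS (TMM, AT1G80080) and ERECTA-LIKE 1 (ERL1, AT5G62230), the secreted peptides EPF1 (AT2G20875), EPF2 (AT1G34245) and STOMAGEN (AT4G12970), the protease SDD1 (AT1G04110) and the polarity protein BASL (AT5G60880). Of these, 8 reached the mean of 10 counts per library that was required of the 18291 genes tested, whereas EPF2 and BASL did not. FAMA, TMM, EPF1 and STOMAGEN also reached it in old leaves alone. SPCH, MUTE, SDD1 and ERL1 reached it only through their counts in young leaves, so that counts of calls among the 8 are descriptions and each gene is given with its counts.

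To ask how the response to abscisic acid (ABA), the drought and salt stress hormone, depends on leaf age, Col-0 wild-type plants of 28 to 35 days were sprayed with mock solution (0.5% ethanol with Tween20) or with 500 µM ABA in the same solvent. True leaf 7 (L7, old) and true leaf 12 (L12, young) were harvested 48 h later, which gave 4 groups (mock-treated L7, ABA-treated L7, mock-treated L12 and ABA-treated L12) of 3 libraries each from 3 repeats of the experiment. All groups shared the Col-0 background, ethanol and Tween20, whose share is described as 0.05% in one place and 0.02% in another, and the labels describe L7 and L12 alike as fully expanded. How many plants or leaves made up a library is not given in the sources used here, and p-values measure the spread between these libraries.

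Stomata arise through a short cell lineage. SPCH starts it by driving asymmetric divisions of protodermal cells, MUTE ends these divisions and commits the cell to a guard mother cell, and FAMA closes the lineage by limiting the last division and setting guard cell identity. All of them are basic helix-loop-helix (bHLH) factors that act with the partners SCRM and SCRM2. The peptides EPF2 and EPF1 are released by lineage cells and hold back entry into the lineage and clustering of stomata, whereas STOMAGEN comes from the mesophyll and promotes stomata, and all of them are read by receptor kinases of the ERECTA family together with TMM.

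The members lie on all 5 chromosomes, in coordinates of TAIR10.1, and only ERL1 overlaps another annotated gene, AT5G62240 on the other strand. Since the strand option of the read counting is not given in the sources used here, reads of this pair may not have been told apart. The upstream sequences of the members were searched on both strands for ACGTG, the core of the ABA-responsive element. They were also searched for CANNTG, the E-box that bHLH factors bind, and for CACGTG, the G-box, which contains both. In the 250 bases before the annotated gene start, ACGTG was found in 2 of 10 members (MUTE and ERL1), against 22.9% of 27443 such windows in the genome. CANNTG was found in 6 of 10 members (MUTE, FAMA, EPF1, EPF2, SDD1 and BASL), against 55.3% of windows, and CACGTG in 0 of 10, against 6.49%. The windows of MUTE and ERL1, which hold ACGTG, and those of EPF2, with 3 E-boxes, and SDD1, with the largest ratio between leaf ages among members with counts in old leaves, are printed 5′ to 3′ on the gene's own strand, from the RefSeq annotation and genome of TAIR10.1, with matches in capitals. They cover chr3:1846192-1846441 (plus strand), chr5:24995879-24996128 (plus strand), chr1:12472618-12472867 (plus strand) and chr1:1063810-1064059 (minus strand). A match only says that these letters occur in the window.
MUTE: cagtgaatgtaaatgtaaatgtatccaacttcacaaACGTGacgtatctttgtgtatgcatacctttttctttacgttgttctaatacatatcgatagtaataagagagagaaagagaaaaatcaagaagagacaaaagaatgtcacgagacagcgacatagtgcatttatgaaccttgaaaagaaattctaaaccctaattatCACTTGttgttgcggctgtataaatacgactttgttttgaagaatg
ERL1: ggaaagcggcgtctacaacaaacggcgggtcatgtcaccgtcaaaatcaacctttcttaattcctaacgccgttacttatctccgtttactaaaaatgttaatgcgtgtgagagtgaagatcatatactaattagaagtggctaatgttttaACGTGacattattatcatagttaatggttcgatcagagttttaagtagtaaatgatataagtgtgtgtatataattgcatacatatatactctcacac
EPF2: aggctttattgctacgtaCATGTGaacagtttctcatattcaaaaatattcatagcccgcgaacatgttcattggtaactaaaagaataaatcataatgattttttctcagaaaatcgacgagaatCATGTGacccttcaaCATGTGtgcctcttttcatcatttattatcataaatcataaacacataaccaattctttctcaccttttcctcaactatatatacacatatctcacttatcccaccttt
SDD1: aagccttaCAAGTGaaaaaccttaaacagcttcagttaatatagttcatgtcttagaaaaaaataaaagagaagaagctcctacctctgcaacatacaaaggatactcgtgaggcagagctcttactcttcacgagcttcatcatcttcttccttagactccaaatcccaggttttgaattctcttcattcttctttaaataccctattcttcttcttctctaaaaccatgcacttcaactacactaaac

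The libraries held between 11811137 and 21485394 counts on genes, and levels are given as CPM, counts scaled to a common library size after it was normalized by the trimmed mean of M-values. The abbreviation TMM is used here for the gene only. The ABA spray was visible in the libraries: RAB18, RD29A, RD29B and HAI1, known ABA response genes, summed to 2480–4070 CPM in ABA-treated libraries and to 238–552 CPM in mock-treated libraries. The tissue was leaf by its markers, with mesophyll genes such as RBCS1A between 7890 and 17300 CPM in the group means. In all 4 groups the libraries of replicate 3 held relatively more counts on short transcripts. Over genes, transcript length had a rank correlation of -0.554 to -0.391 with how far a gene stood from its group mean in these libraries, against 0.0181 to 0.567 in the other 8.

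Which of the lineage genes differed between young and old leaves was asked first. All 10 members had higher mean CPM in young than in old leaves under both treatments. SDD1, MUTE, SPCH, EPF2, ERL1 and BASL were nearly absent from old leaves, with at most 7 counts in any of the 6 old libraries, whereas FAMA, TMM, EPF1 and STOMAGEN were measured in all 12 libraries. A gene is called here when its adjusted p was under 0.01 and its log2 fold change beyond 1 in either direction, in a fit of all 12 libraries with the replicate number as a block. In these whole-leaf samples, fewer cells of a type and less RNA per cell cannot be told apart.

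SPCH, the factor that opens the lineage, was at 0, 0.22 and 0 CPM in mock-treated L7 and at 0.0491, 0.0448 and 0 CPM in ABA-treated L7. In L12 it was at 1.34, 2.06 and 0.22 CPM after mock and at 1.33, 0.936 and 0.562 CPM after ABA. Old leaves thus held 4 counts of SPCH in all against 148 in young leaves. After scaling for library size, young leaves had 25.9 times the level of old leaves (95% counting interval 9.92 to 96.5), and SPCH was higher in young leaves in 6 of 6 pairs of libraries with the same replicate number and treatment (edgeR quasi-likelihood test, Benjamini-Hochberg adjusted p = 0.00045 over 18291 genes). Only the young library at 0.22 CPM, mock-treated replicate 3 with 3 counts, reached down to the highest old library, which had 2 counts. All counting intervals cover counting error only, and with each library left out in turn, an alternative chosen after seeing the data, the ratio of SPCH ran from 21 to 46.7, the highest without mock-treated L7 replicate 2.

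MUTE, which acts next in the lineage, had 2 counts in all old leaves, both in mock-treated replicate 2 (0.22 CPM), and 0 in the other 5 old libraries. The L12 libraries were at 1.03, 1.42 and 0.293 CPM after mock and at 1.84, 1.25 and 0.692 CPM after ABA, so that all 6 young libraries lay above all 6 old ones. The ratio of young to old was 51.5 over both treatments (14 to 430; edgeR adjusted p = 0.000566, higher in 6 of 6 pairs). Among ABA-treated leaves, where old leaves had no count, MUTE was at least 22.4-fold higher in young leaves, with the old group set at 3 counts. Without mock-treated L7 replicate 2 no count was left in old leaves, and MUTE was at least 30.9-fold higher over both treatments, with old leaves set at 3 counts.

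FAMA, the last of these factors, was present in every library. It was at 8.73, 5.39 and 3.45 CPM in mock-treated L7, at 5.31, 5.51 and 5.86 CPM in ABA-treated L7, at 15.8, 22.3 and 8.57 CPM in mock-treated L12 and at 12.1, 17.3 and 15.7 CPM in ABA-treated L12. The lowest young library, again mock-treated replicate 3, fell just under the highest old library, and the other 5 young libraries lay above all old ones. FAMA was higher in young leaves by 1.41 on the log2 scale (SE 0.25, edgeR adjusted p = 0.00125, 6 of 6 pairs), a ratio of pooled counts of 2.77 (2.51 to 3.05). It was not called without replicate 2 (log2 fold change 1.18, edgeR adjusted p = 0.0151).

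TMM, a leucine-rich repeat receptor-like protein without a kinase domain, was at 0.94, 2.09 and 2.33 CPM in mock-treated L7 and at 1.03, 0.403 and 2.04 CPM in ABA-treated L7. In L12 it was at 5.99, 8.5 and 2.34 CPM after mock and at 10.5, 8.33 and 4.71 CPM after ABA. All 6 young libraries lay above all 6 old ones, but mock-treated L12 replicate 3 was almost level with the highest old library, mock-treated replicate 3 at 2.33 CPM. The log2 fold change of young against old was 2.22 (SE 0.48, edgeR adjusted p = 0.00295, 6 of 6 pairs). It was not called without replicate 1 (1.84, adjusted p = 0.032), without replicate 2 (1.81, adjusted p = 0.0202) or without ABA-treated L7 replicate 1 (2.17, adjusted p = 0.0101).

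ERL1, a receptor kinase of the ERECTA family that is active in lineage cells, was at 0.0672, 0 and 0.16 CPM in mock-treated L7 and at 0.197, 0.314 and 0 CPM in ABA-treated L7, or 14 counts in all. The L12 libraries were at 1.42, 2.19 and 0.293 CPM after mock and at 1.89, 1.52 and 0.908 CPM after ABA. A single young library, mock-treated replicate 3 with 4 counts, lay within the range of old leaves. The ratio of young to old was 9.37 (5.44 to 17.5), and the fitted log2 fold change was 3.37 (SE 0.57, edgeR adjusted p = 0.000934, 6 of 6 pairs), which was not called without replicate 1 (3.14, adjusted p = 0.0154). The ratio was 14.1 without ABA-treated L7 replicate 2.

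**Figure D1:**
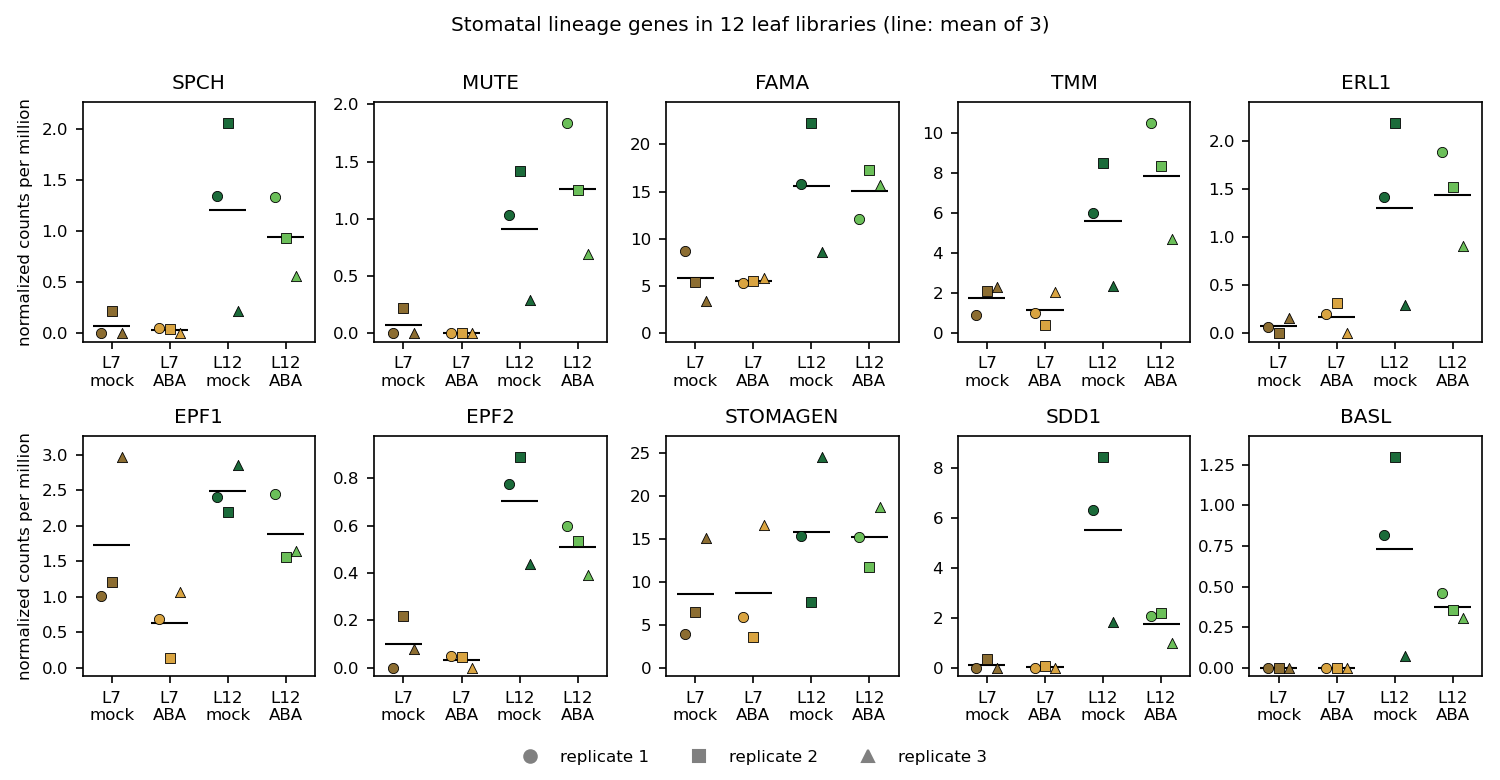
Normalized CPM (vertical axis, a separate linear scale for each gene) of the 10 stomatal lineage genes in old (L7) and young (L12) leaves after mock or ABA, with 1 point per library, its shape for the replicate number, and a line at the mean of 3 libraries. SPCH, MUTE, EPF2, SDD1 and BASL are at or near 0 in old leaves, and the mock-treated L12 library of replicate 3 is the lowest of its group for every gene but EPF1 and STOMAGEN.

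Of the peptides, EPF1 and STOMAGEN had counts in all libraries and EPF2 was nearly absent from old leaves. EPF2, which holds back entry into the lineage, was at 0, 0.22 and 0.0802 CPM in mock-treated L7, at 0.0491, 0.0448 and 0 CPM in ABA-treated L7, at 0.776, 0.89 and 0.439 CPM in mock-treated L12 and at 0.598, 0.535 and 0.389 CPM in ABA-treated L12. The groups of young and old leaves did not overlap, at 5 counts against 80. EPF2 was higher in young leaves in 6 of 6 pairs by 0.539 ± 0.162 CPM (SD, n = 6 pairs). The exact two-sided sign-flip permutation test gave p = 0.0312, the smallest that 6 independent pairs allow. It treats the pairs as independent, although pairs of both treatments share replicate numbers and so come from the same repeats. This p may therefore be too small. The ratio was 11.2 (4.61 to 35.5), or 16.8 without mock-treated L7 replicate 2.

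EPF1, which acts later and keeps stomata apart from each other, was at 1.01, 1.21 and 2.97 CPM in mock-treated L7, at 0.688, 0.134 and 1.07 CPM in ABA-treated L7, at 2.41, 2.19 and 2.86 CPM in mock-treated L12 and at 2.44, 1.56 and 1.64 CPM in ABA-treated L12. The highest of all 12 libraries was an old one, mock-treated replicate 3, and EPF1 was the only member with a pair in the opposite direction (5 of 6 pairs higher in young leaves). Its difference was not called (log2 fold change 1.21, SE 0.37, edgeR adjusted p = 0.0179). It was called with DESeq2 (1.24, adjusted p = 0.00505), and over the alternatives tried the adjusted p lay between 0.00451 and 0.103.

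STOMAGEN, the peptide that promotes stomata, was at 3.96, 6.49 and 15.1 CPM in mock-treated L7 and at 5.9, 3.5 and 16.6 CPM in ABA-treated L7. In L12 it was at 15.3, 7.61 and 24.5 CPM after mock and at 15.2, 11.7 and 18.7 CPM after ABA. Replicate 3 was the highest library in all 4 groups, so that young and old leaves overlapped widely while young leaves were higher in 6 of 6 pairs with the same number. The log2 fold change was 1.01 (SE 0.26, edgeR adjusted p = 0.00673), just past the fold threshold, and the ratio of pooled counts was 1.93 (1.77 to 2.11). With a correction for transcript length and GC content the log2 fold change was 1.89 (adjusted p = 0.000227), and STOMAGEN was then also called within each treatment, at 1.91 after mock and 1.88 after ABA. The call over both treatments was lost in 12 of 24 alternatives. It was lost without the replicate block (0.86, adjusted p = 0.131), without each of the replicate numbers 1, 2 and 3 (0.74, 1.03 and 1.31), and without any of 8 single libraries, namely mock-treated L7 replicates 1 and 3, mock-treated L12 replicates 1 and 3, ABA-treated L7 replicates 1 and 2 and ABA-treated L12 replicates 1 and 2 (0.82 to 1.06, adjusted p 0.0122 to 0.0218).

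SDD1, a subtilisin-like protease that limits stomatal density, had the largest ratio of pooled counts over both treatments among members with counts in old leaves. The interval of MUTE (14 to 430) covers this ratio, and for BASL, without counts in old leaves, only a lower bound can be given. It had counts in only 2 of 6 old libraries, at 0.33 CPM in mock-treated replicate 2 and 0.0448 CPM in ABA-treated replicate 2. The L12 libraries were at 6.34, 8.46 and 1.83 CPM after mock and at 2.07, 2.18 and 0.995 CPM after ABA, and all 6 young libraries lay above all old ones. Old leaves held 4 counts and young leaves 498, a ratio of 87.3 (33.9 to 322; edgeR adjusted p = 9.03e-05, 6 of 6 pairs). Of the 4 old counts, 3 came from mock-treated L7 replicate 2, without which the ratio was 314 (56.1 to 12400), and without any other single library it was between 62.7 and 101.

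BASL, which marks a pole of the dividing lineage cell and steers its asymmetric division, had no count in any of the 6 old libraries. In L12 it was at 0.819, 1.3 and 0.0732 CPM after mock and at 0.46, 0.357 and 0.303 CPM after ABA, the lowest of them from a single count. With the old group set at 3 counts, BASL was at least 18-fold higher in young leaves over both treatments, at least 10.3-fold in mock-treated and at least 6.68-fold in ABA-treated leaves. It was higher in 6 of 6 pairs by 0.551 ± 0.439 CPM (SD, n = 6 pairs; exact two-sided sign-flip permutation test, p = 0.0312). These pairs also come from 3 repeats, and with no count in old leaves no pair could go the other way.

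**Figure D2:**
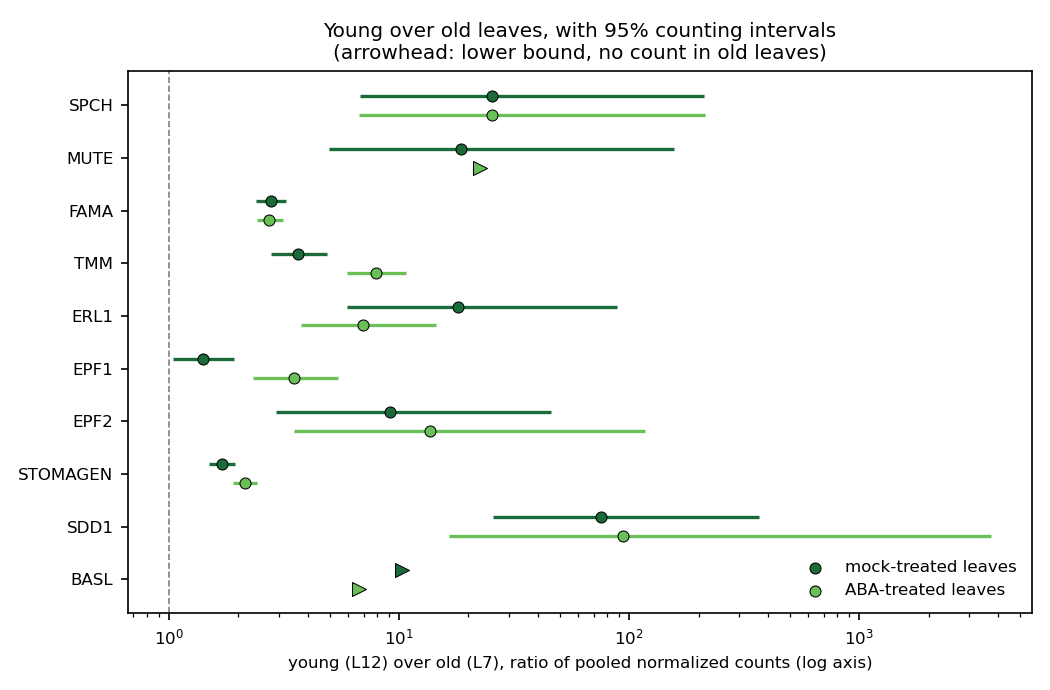
Ratio of young (L12) to old (L7) leaves for each stomatal lineage gene, from pooled counts scaled by normalized library size, on a log axis, for mock-treated (dark) and ABA-treated (light) leaves, with lines for the 95% counting interval and arrowheads for lower bounds where old leaves had no count. All values lie above 1, from 1.4 for EPF1 after mock to 93.8 for SDD1 after ABA.

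In total, 7 of the 8 members tested were called higher in young leaves over both treatments (all but EPF1), while 16.3% of all genes tested were called higher. SPCH, MUTE, SDD1 and ERL1 reached the minimum of counts only through young leaves, so that counts among the 8 only describe these genes. Of the members that reached it in old leaves alone, FAMA, TMM and STOMAGEN were called and EPF1 was not. In a fit with no filter on low counts, 9 of 10 members were called, EPF2 (adjusted p = 0.00111) and BASL (adjusted p = 0.00229) among them, against 13.1% of genes. The count depended on the replicates included: it was 4 of 8 without replicate 1 (14.1% of genes called higher), 3 of 7 without replicate 2 (8.79%) and 6 of 8 without replicate 3 (6.47%), with SPCH, MUTE and SDD1 called wherever they were tested. MUTE, TMM and SDD1 were the 3 of 8 with all 6 young libraries above all 6 old ones, against 3.49% of genes.

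Within a single treatment the comparison was between 3 and 3 libraries. After mock, SPCH (adjusted p = 0.00672) and SDD1 (adjusted p = 0.00121) were called, or 2 of 8 against 6.81% of genes, and MUTE (0.0138), FAMA (0.0141) and ERL1 (0.0109) missed the adjusted p threshold of 0.01 narrowly in edgeR's quasi-likelihood test. At an adjusted p under 0.05 without a fold limit, 5 of 8 members were higher in young leaves after mock (21.2% of genes) and 8 of 8 after ABA (18.7%). At the thresholds used throughout, after ABA, SPCH (adjusted p = 0.00741), MUTE (adjusted p = 0.00616) and SDD1 (adjusted p = 0.00298) were called, or 3 of 8 against 3.13% of genes. SPCH, MUTE and SDD1 reached the minimum of counts only through young leaves, so that these counts of calls only describe them. FAMA, TMM, EPF1 and STOMAGEN, which reached it in old leaves alone, were called in this fit neither after mock nor after ABA. The counts of calls moved with the settings, as did the share of all genes called. With DESeq2 they were 5 after mock (14.1% of genes) and 7 after ABA (13.8%), and without the replicate block 0 and 0, where 23 and 6 of all 18291 genes were called higher. With single libraries left out, the count after mock was 4 without L12 mock replicate 3 (6.74% of genes), and 1 without any of L7 mock replicates 1, 2 and 3, L12 mock replicates 1 and 2, L7 ABA replicate 1 and L12 ABA replicate 1, where 0.197% to 5.44% of genes were called. After ABA it was 5 without L12 mock replicate 2 (11.2%), 1 without L7 mock replicate 3 (0.558%), and 0 without any of the 6 ABA-treated libraries, where 7 to 151 of all genes were called higher. Without L12 mock replicate 2 SPCH fell under the minimum of counts and was not tested, as did MUTE without L12 ABA replicate 1. The libraries of the groups themselves did not overlap for MUTE, TMM, SDD1 and ERL1 after mock (4 of 8, against 14.1% of genes) and for every member tested but STOMAGEN after ABA (7 of 8, against 24.5%).

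Markers of dividing cells differed between leaf ages in the same direction. Of 13 such genes (MCM2 to MCM7, CYCB1;1, CYCB1;2, 4 B-type cyclin-dependent kinases and KNOLLE), 12 were called higher in young leaves, against 16.3% of all genes. Their summed level was 8.5–21.5 CPM in mock-treated L7, 12.6–25.9 CPM in ABA-treated L7, 43–157 CPM in mock-treated L12 and 59.5–69.7 CPM in ABA-treated L12. Within mock-treated L12 the sum was 98.5, 157 and 43 CPM in replicates 1, 2 and 3, and SPCH, MUTE, FAMA, TMM, ERL1, EPF2, SDD1 and BASL had the same order of the 3 libraries. This order was found for 6 of the 8 members tested and for 31.3% of all genes tested, and the same libraries stood in this order by their correlation with transcript length (0.0181, 0.567 and -0.554). Genes of mature guard cells (MYB60, KAT1, KAT2, GORK, SLAC1, ALMT12, HT1 and TGG1) were called higher in young leaves in 6 of 8 cases (16.3% of all genes). Their sum, most of it from the myrosinase TGG1, was 209–1190 CPM in old and 1240–3050 CPM in young leaves. Of the epidermal markers ATML1, PDF1 and KCS10, PDF1 was called (log2 fold change 6.69, edgeR adjusted p = 7.1e-05), and the sum of all 3 was 86.6–190 CPM in old and 151–314 CPM in young leaves. Trichome markers stayed at or under 3.04 CPM in sum, with GL1 at 0 in 3 of 4 groups. Of 5 mesophyll markers 1 was called higher in young leaves (CA1, 1.11, edgeR adjusted p = 0.000779), and of 3 vascular markers 0 were. The part of these cell types in the differences between leaf ages was not tested.

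The levels of different genes were compared after division by exon length in kilobases. In mock-treated L12, STOMAGEN had the highest level at 16 ± 8.56 CPM per kb (SD, n = 3), followed by FAMA at 6.57 ± 2.91, TMM at 3.06 ± 1.69, EPF1 at 2.87 ± 0.393 and SDD1 at 2.21 ± 1.35 CPM per kb. MUTE at 0.972 ± 0.607, EPF2 at 0.848 ± 0.283, BASL at 0.575 ± 0.485, SPCH at 0.554 ± 0.427 and ERL1 at 0.37 ± 0.271 CPM per kb made up the lower end. No neighbours in this order were further apart than the sum of their SDs, while STOMAGEN and FAMA, and FAMA and TMM, were further apart than the larger of their SDs. In ABA-treated L12 the order began in the same way, with STOMAGEN (15.5 ± 3.56 CPM per kb) apart from FAMA (6.32 ± 1.13 CPM per kb) by more than the sum of their SDs, and SDD1 (0.696 ± 0.261 CPM per kb) stood below MUTE (1.34 ± 0.61 CPM per kb). In both old groups STOMAGEN, FAMA, EPF1 and TMM were the first 4 members, and all others were at or below 0.121 CPM per kb. Within mock-treated L12, replicate 2 had STOMAGEN (7.73 CPM per kb) below FAMA (9.42 CPM per kb), the reverse of the group means. The libraries of mock-treated L12 also differed in their correlation with transcript length (0.0181, 0.567 and -0.554 in replicates 1, 2 and 3). Division by exon length does not remove such differences.

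How the members varied with each other was described over the 12 libraries by the Pearson correlation r of log2 CPM. The libraries share depth, leaf age and replicate structure, so these values are a description only. SPCH and MUTE were most alike (r = 0.979), followed by SPCH and SDD1 (0.955) and MUTE and SDD1 (0.939). STOMAGEN had its highest value with EPF1 (0.754) and its lowest with FAMA (0.229), and EPF1 with SPCH was at 0.473. TMM stood between, at 0.91 with MUTE and 0.754 with EPF1.

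**Figure D3:**
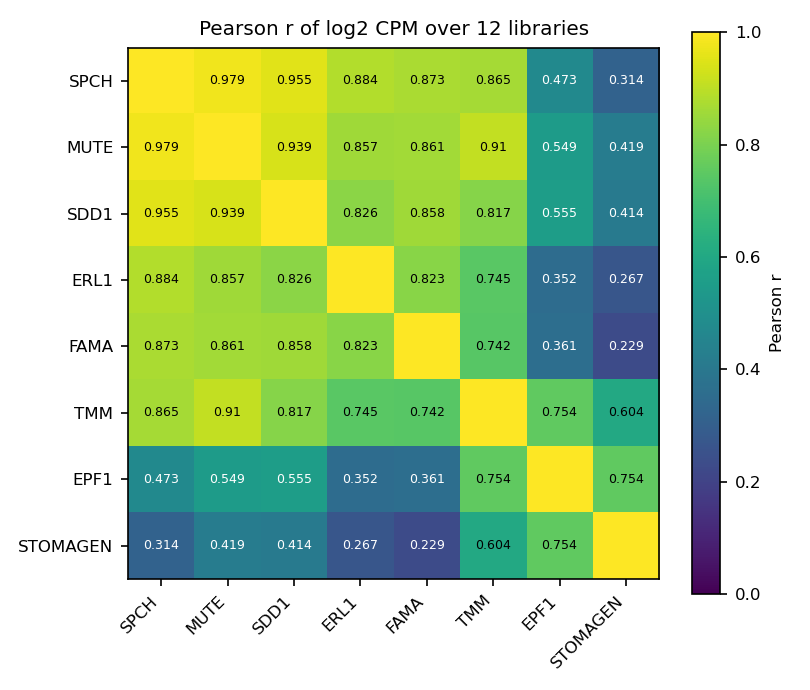
Pearson correlation of log2 CPM over 12 libraries for each pair of the 8 stomatal lineage genes tested, with colour and number giving r. SPCH, MUTE, SDD1, ERL1, FAMA and TMM have values of 0.742 or more among themselves, whereas EPF1 and STOMAGEN are between 0.229 and 0.604 with all of these except TMM with EPF1 (0.754).

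Among all genes tested outside the list, those with the pattern most like a member's over the 12 libraries were MSH7, a DNA mismatch repair gene, for SPCH (r = 0.982), PDF1, a gene of the outermost cell layer, for MUTE (0.987), and the A-type cyclin CYCA2;4 for FAMA (0.982). For SDD1 the closest were AT1G33930 (0.984) and UVI4-LIKE (0.972), a regulator of cell cycle progression. For SPCH the next were MAP65-5 (0.974), a microtubule-associated protein, and EGY2 (0.973), and for MUTE they were AT3G06880 (0.968) and AT4G29360 (0.965). TMM (MES8, 0.921), EPF1 (the carbonic anhydrase CA2, 0.937) and STOMAGEN (AT3G23840, 0.914) had less similar neighbours, and for ERL1 the closest was AT4G29920 (0.971). The difference between leaf ages is part of every r here, and SPCH, MUTE and SDD1 were nearly absent from old leaves. These neighbours were picked by the same values and not tested, so they are a description only.

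Whether ABA changed the lineage genes was asked next, in each leaf age. ABA against mock gave no call for any of the 8 members tested. In old leaves the count was 0 of 8, where 0.935% of genes were called higher and 2% lower, and in young leaves it was 0 of 8, where 1.47% were called higher and 3.08% lower (edgeR quasi-likelihood test). At shares this small a count of 0 of 8 is near that of all genes. In old leaves SPCH, MUTE, SDD1 and ERL1 had 2 to 3 counts after mock, so that a decrease there could not be called. At an unadjusted p under 0.05 there was 1 of 8 members in each leaf age, EPF1 in L7 and SDD1 in L12. Of all 18291 genes, 5244 in L7 and 6257 in L12 had such a p in edgeR's test. DESeq2 and limma with voom also called 0 members.

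SDD1 had the lowest adjusted p of the members in young leaves. Its 117 counts in the ABA-treated L12 libraries stood against 381 in the mock-treated ones, a ratio of 0.281 (95% counting interval 0.226 to 0.346), and it was lower after ABA in 3 of 3 pairs with the same replicate number. The groups overlapped, as mock-treated replicate 3 at 1.83 CPM lay under ABA-treated replicates 1 and 2. The log2 fold change was -1.49 (SE 0.49), with an unadjusted p of 0.012 and an adjusted p of 0.0667 in edgeR, and over 25 alternatives the value stayed between -1.79 and -1.10 with adjusted p between 0.0278 and 0.304.

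EPF1 had the lowest adjusted p in old leaves, at 29 counts after ABA against 63 after mock, a ratio of 0.311 (0.193 to 0.49). It was lower after ABA in 3 of 3 pairs, and the groups overlapped, as ABA-treated replicate 3 at 1.07 CPM lay above mock-treated replicate 1. The log2 fold change was -1.54 (SE 0.56, unadjusted p = 0.0192, edgeR adjusted p = 0.102), and over 25 alternatives it lay between -2.05 and -1.07 with adjusted p between 0.0552 and 0.368. In young leaves the EPF1 value was -0.39 (SE 0.49, adjusted p = 0.59).

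FAMA and STOMAGEN, the members with the most counts, had ABA values near 0. For FAMA the log2 fold change was -0.04 (SE 0.36) in old and 0.02 (SE 0.34) in young leaves, and for STOMAGEN it was -0.08 (SE 0.36) and 0.09 (SE 0.35), with edgeR adjusted p between 0.869 and 0.974. The sign of each of these 4 values changed under some of the alternatives, with scaling by library size only giving 0.38 for FAMA and 0.4 for STOMAGEN in old leaves. TMM was at -0.66 (SE 0.69) in old and 0.49 (SE 0.59) in young leaves. In young leaves MUTE was at 0.58 (SE 0.58), ERL1 at 0.32 (SE 0.59) and SPCH at -0.09 (SE 0.64), of which SPCH turned to 0.26 and ERL1 kept its sign with scaling by library size only.

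EPF2 and BASL, tested by their CPM, were lower after ABA in 5 of 6 pairs and in 2 of the 3 pairs that had counts, respectively. EPF2 differed by -0.132 ± 0.139 CPM (SD, n = 6 pairs; exact sign-flip permutation test, p = 0.0625), with 34 counts after ABA and 46 after mock in young leaves. Here too the test treats 6 pairs from 3 repeats as independent. BASL differed by -0.178 ± 0.418 CPM (SD, n = 6 pairs; exact sign-flip permutation test, p = 0.5), where the 3 pairs of old leaves were at 0 and only the 3 pairs of young leaves bore on the test, which cannot give a p below 0.25. In young leaves BASL had 25 counts after ABA against 52 after mock, and mock-treated replicate 3 was the lowest of these 6 libraries. For SPCH, MUTE, EPF2, SDD1 and BASL in old leaves no fold with ABA is given, as both groups had at most 3 counts, and ERL1 had 11 counts after ABA against 3 after mock there (ratio 2.48, 0.655 to 13.8).

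**Figure D4:**
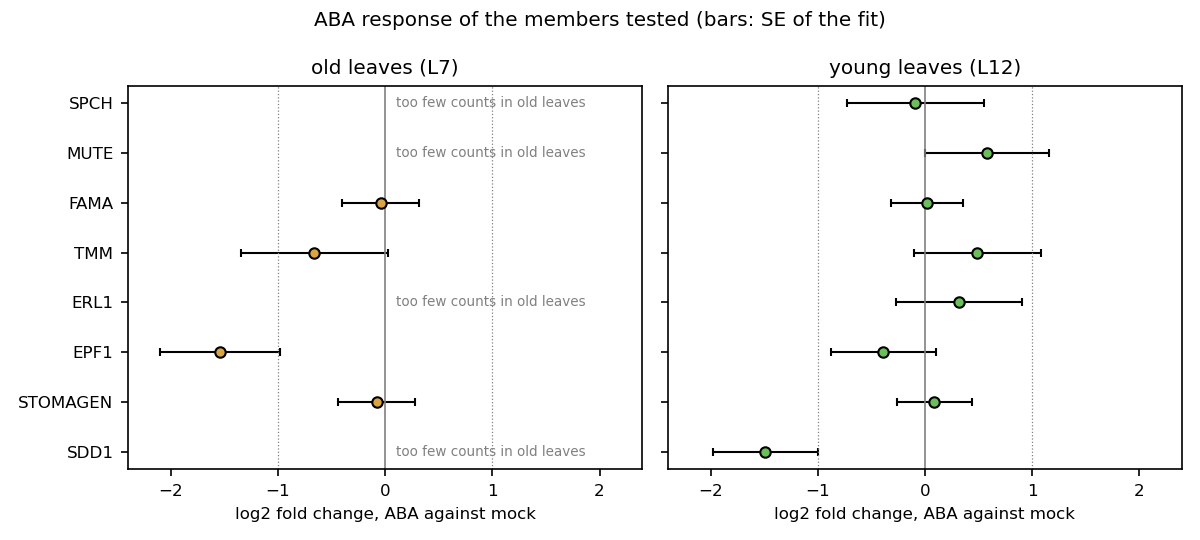
Log2 fold change of ABA against mock (points) with the SE of edgeR's fit (bars) in old (left) and young leaves (right) for the stomatal lineage genes tested, where dotted lines mark a log2 fold change of 1 in either direction. EPF1 in L7 (-1.54) and SDD1 in L12 (-1.49) are the only points beyond a dotted line, and neither was called. SPCH, MUTE, SDD1 and ERL1, which did not reach a mean of 10 counts in old leaves, are not drawn there.

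Averaged over both leaf ages, ABA against mock again gave 0 of 8 calls, where 4.07% of genes were called higher and 6.77% lower. At an unadjusted p under 0.05 in edgeR there were 2 members (EPF1 and SDD1), against 8356 of all 18291 genes. DESeq2 and limma with voom gave 0 calls among the members. For the interaction of leaf age with ABA, 0 of 8 members were called, as were 0% of all genes. An unadjusted p under 0.05 in edgeR's test was found for 0 members, against 1358 of all 18291 genes. DESeq2 and limma with voom called 0 members. Among all 18291 genes DESeq2 called 29 higher and 6 lower and limma with voom 0. The smallest adjusted p of this difference in edgeR's test was 0.0793, so that a missing call says little on whether the members responded alike in L7 and L12.

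The surroundings of these genes were read from 30 further genes of the pathway, of which 26 were tested. Over both treatments 6 of 26 were called higher in young leaves (16.3% of all genes) and 1 lower (10.8%), with a median log2 fold change of 0.43 against -0.01 over all genes. Of the receptors, ERECTA itself (ER) was at 11.6 ± 6.35 CPM in mock-treated L7 and at 44.4 ± 24.9 CPM in mock-treated L12 (SD, n = 3), and it was higher in young leaves by 2.02 on the log2 scale (SE 0.22, adjusted p = 0.000164). ERL2, the third receptor of this family, was higher by 1.75 (SE 0.22, adjusted p = 0.000299) and the co-receptor SERK1 by 2.17 (SE 0.36, adjusted p = 0.000842). The other co-receptors SERK2, BAK1 and SERK4 were not called, at 0.06, -0.50 and 0.50. With a correction for transcript length and GC content ER was at 0.79 and ERL2 at 0.67 (edgeR adjusted p = 0.00139 and 0.0353), under the fold threshold, and SERK1 was not called without replicate 3 (2.01, adjusted p = 0.0116). The 3 ERECTA family receptors, ERL1 included, were thus all called higher in young leaves in edgeR's fit without the length and GC correction. Of these, ERL1 reached the minimum of counts only through young leaves.

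The bHLH partners SCRM and SCRM2 were expressed in every group at 19.1 to 37.1 CPM and were not called (0.45, SE 0.14, and 0.97, SE 0.15). SCRM2 passed the adjusted p threshold in edgeR (adjusted p = 0.000648) but not the fold threshold. Of the late factors, FLP, a MYB protein that limits the last division, was called (1.36, SE 0.35, adjusted p = 0.00716), whereas its paralog MYB88 (1.05, SE 0.35, adjusted p = 0.025) and the guard cell factor SCAP1 (-0.18) were not. FLP lost its call in 14 of 24 alternatives, with adjusted p up to 0.0641 (without replicate 2, log2 fold change 0.87), and kept it without a single library only for mock-treated L7 replicate 3, mock-treated L12 replicate 3 and ABA-treated L7 replicate 1. The 2 HD-ZIP IV factors HDG2 (0.56) and ATML1 (0.65) were not called either.

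Within the kinase cascade below the receptors, the members moved in different directions. YDA, the kinase at its top, was higher in young leaves (1.09, SE 0.17, edgeR adjusted p = 0.000626) and MKK4 was lower (-1.02, SE 0.22, adjusted p = 0.00297). YDA fell to 0.00 with a correction for transcript length and GC content, and it was not called without replicate 3 (0.98) or without mock-treated L12 replicate 2 (1.00). MKK4 was past the fold threshold by a small margin and lost its call in 10 of 24 alternatives, 6 of them with a single library left out: mock-treated L7 replicate 2 (-0.99) or 3 (-1.02), mock-treated L12 replicate 1 (-0.93) or 2 (-0.88), ABA-treated L7 replicate 1 (-0.92) and ABA-treated L12 replicate 3 (-0.93). MKK5 (-0.69), MKK9 (-0.88), MPK3 (0.96) and MPK6 (-0.51) did not reach the fold threshold, and MKK7 was below the minimum of counts. These kinases also serve other pathways, such as immune signalling.

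**Figure D5:**
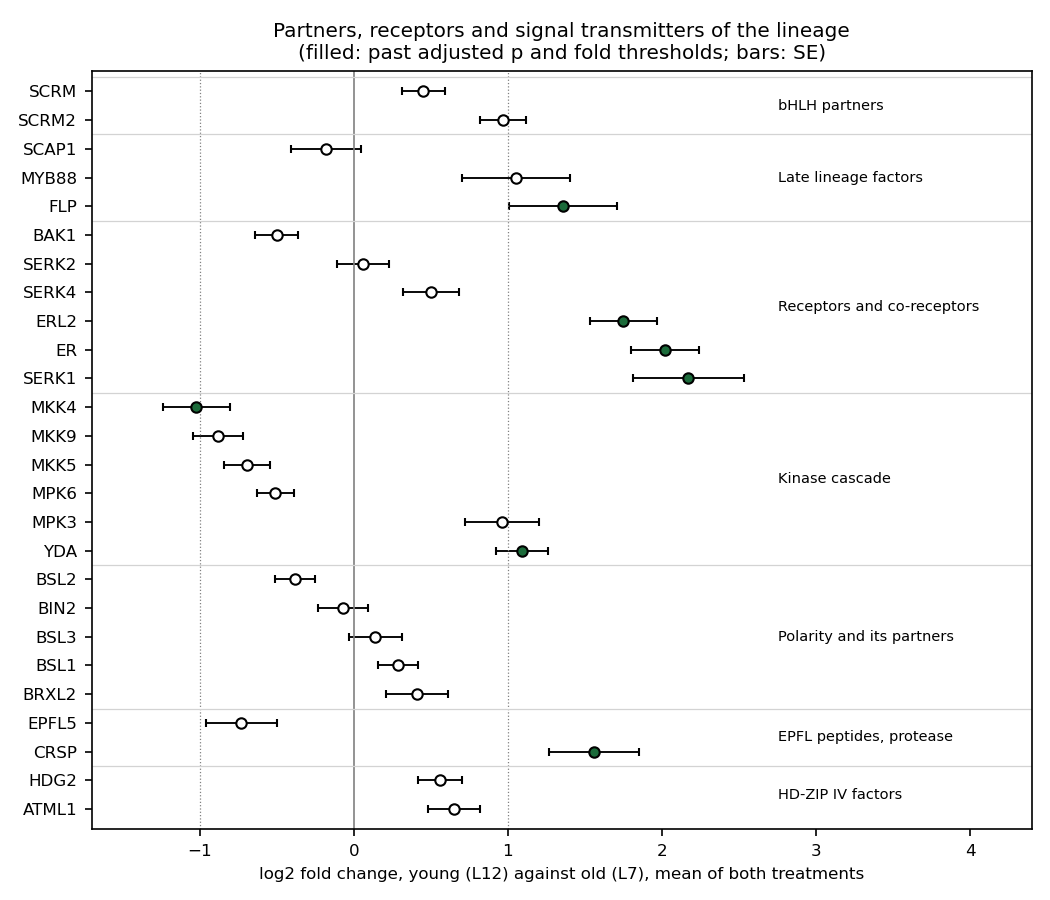
Log2 fold change of young (L12) against old (L7) leaves, averaged over both treatments, with the SE of edgeR's fit for 26 tested genes that act with the stomatal lineage genes, grouped by role, where filled points passed both thresholds and dotted lines mark a log2 fold change of 1 in either direction. ER, ERL2, SERK1, YDA, FLP and CRSP are filled on the right, from 1.09 to 2.17, and MKK4 on the left at -1.02.

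Among polarity genes, the 5 tested (BRXL2, BSL1, BSL2, BSL3 and BIN2, which work with BASL in the dividing cell) did not reach the fold threshold, with values between -0.38 and 0.41. POLAR, a scaffold that is found in the same cells as BASL, was below the minimum of counts, at 0 CPM in mock-treated L7, 0.0313 CPM in ABA-treated L7, 0.763 ± 0.559 CPM in mock-treated L12 and 0.496 ± 0.319 CPM in ABA-treated L12 (SD, n = 3). CRSP, a secreted protease that cleaves the EPF2 precursor, was the only pathway gene called in both kinds of comparison in the direction of higher levels. It was at 3.67 ± 1.88 CPM in mock-treated L7, 10.9 ± 6.64 CPM in ABA-treated L7, 9.05 ± 6.22 CPM in mock-treated L12 and 36.3 ± 16.6 CPM in ABA-treated L12, higher in young leaves by 1.56 (SE 0.29, edgeR adjusted p = 0.00145) and higher after ABA by 1.70 (adjusted p = 0.00208). The CRSP call was lost without replicate 3 in both (1.46, adjusted p = 0.0224, and 1.91, adjusted p = 0.0263), as it was with no replicate block (1.51, adjusted p = 0.0195, and 1.79, adjusted p = 0.0226). For leaf age it was also lost without replicate 2 (1.25, adjusted p = 0.0166) and with the correction for transcript length and GC content (0.94, adjusted p = 0.0105).

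With ABA, 1 of the 26 pathway genes rose over both leaf ages (CRSP, against 4.07% of all genes) and 1 fell (MKK4, -1.23, edgeR adjusted p = 0.00291, against 6.77%), with a median of -0.15 against 0.03 over all genes. MKK4 was also the only one called in a single leaf age, in L12 (-1.61, adjusted p = 0.00964), a call that was lost in 17 of 25 alternatives (adjusted p up to 0.122), among them without any single library other than mock-treated L12 replicate 2. Over both leaf ages the MKK4 call was lost in 6 of 24 alternatives. It was lost without replicate 1 (-1.4, edgeR adjusted p = 0.0226) and without replicate 3 (-0.84, adjusted p = 0.0403). The same held with no replicate block (-1.34, adjusted p = 0.0183) and with scaling by library size only (-0.79, adjusted p = 0.0138). Without ABA-treated L7 replicate 3 or ABA-treated L12 replicate 3 the value was -1.10 (adjusted p = 0.0102 and 0.0116). Of the 8 mature guard cell markers, MYB60 (-1.29), HT1 (-1.35) and TGG1 (-1.09) were called lower after ABA over both leaf ages (3 of 8, against 6.77% of genes) and none higher (4.07%). GORK (1.25, edgeR adjusted p = 0.0198), SLAC1 (0.74, adjusted p = 0.0435) and ALMT12 (0.44, adjusted p = 0.19) had values above 0 and were not called. The median of the 8 was -0.68, and the 13 dividing cell markers had a median log2 fold change of -0.11. The part of these cell types in the ABA values of the members was not tested.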

How the data were processed

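Poly(A) RNA from L7 and L12 leaves was sequenced from strand-specific libraries. The authors deposited raw counts of reads for each gene, not normalized, made from reads mapped to TAIR10 with TopHat2 (2.0.10) and counted with HTSeq (0.6.1), as the submitters' processing notes name them with CASAVA 1.8.2 and cutadapt 1.5. The summary lines of HTSeq, 5.97–10.3% of a library, were left out, and multi-mapped reads are among them.

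Genes with a mean of 10 or more counts (18291 of 32678) were fitted with edgeR 4.0.16 in R 4.3.3 (quasi-likelihood), with trimmed mean of M-values factors (0.612–1.30), the 4 groups and the replicate number as terms, as in the study's own model, which was fitted with limma and voom. The experiment was repeated 3 times, and libraries with the same number in different groups deviated together in 16 of 18 pairs (correlation over 0.1, median 0.361), against a median of -0.217 for 36 pairs with different numbers. Calls needed a Benjamini-Hochberg adjusted p under 0.01 and a log2 fold change beyond 1. Replicates of a group were never duplicates, as their counts differed beyond sampling noise.

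EPF2 and BASL, with fewer counts, were tested by exact sign flips over 6 pairs, which come from 3 repeats and were treated as independent. Ratios of pooled counts carry 95% exact counting intervals, and a group without counts was set at 3 counts. The fits were tested on simulated data. Alternatives were DESeq2 1.42.0, limma 3.58.1 with voom, other filters, scalings, thresholds and samples, no replicate block, and a correction for transcript length and GC content. The members and gene lists were chosen with earlier results of these data known. The 10 members were named, as were pathway genes with a call, and genes most correlated with a member were taken from the 3 with the highest r. RefSeq's TAIR10.1 gave symbols, exon lengths and sequence, with 31912 genes matched. Protein sequences were not used here.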

Additional observations from a re-analysis of the deposited data

How the results depend on the processing

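The direction of young against old leaves was the same for all 8 members tested under every alternative run (22 to 24 for each member). The count of members called over both treatments, 7 (16.3% of all genes), was 8 with DESeq2 (18.2%), 7 with limma and voom (16.5%), and 6 without the replicate block (8.47%), and it ran from 3 to 7 with a replicate number or a single library left out (6.47% to 17.3%). After mock, the count of 2 (6.81%) was 5 with DESeq2 (14.1%), 4 with limma and voom (7.11%), 0 with no replicate block (0.126%), 5 at an adjusted p under 0.05 without a fold limit (21.2%), 4 with the length and GC correction (4.5%), 1 with the compared groups only (1.72%), and from 0 to 4 with a replicate or library left out. The 0 came without replicate 1 and without replicate 3, where 1 and 0 of all genes were called higher. After ABA, the count of 3 (3.13%) was 7 with DESeq2 (13.8%), 6 with limma and voom (8.04%), 0 with no replicate block (0.0328%), 1 with scaling by library size only (0.525%), 8 at an adjusted p under 0.05 (18.7%), 6 with the compared groups only (11.9%), and from 0 to 5 with a replicate or library left out, where 0% to 11.2% of all genes were called higher. The cause of these shifts was not tested, but leaving out a replicate leaves 2 libraries a group. The counts of ABA calls stayed at 0 throughout.

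For EPF2 and BASL, with 1 replicate number left out, young leaves were higher by 0.477 to 0.621 CPM and by 0.414 to 0.733 CPM, where the 4 remaining pairs cannot pass a threshold of 0.05 in the exact sign-flip test.

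Scaling by library size only shifted the median of all genes from -0.01 to 0.30 on the log2 scale for leaf age over both treatments, and the split of calls from 2989 higher and 1973 lower to 3940 and 934. ABA values near 0 changed sign, none of them called: FAMA in L7 (0.38 with library size only, -0.4 to 0.42 with a replicate or library left out) and in L12 (-0.02 with limma and voom, -0.06 with no replicate block, -0.02 with the length and GC correction, -0.31 to 0.34 leaving out replicates or libraries), STOMAGEN in L7 (0.01 with no replicate block, 0.4 with library size only, 0.73 with the length and GC correction, -0.42 to 0.3 leaving out) and in L12 (-0.05 with no replicate block, -0.16 to 0.39 leaving out), SPCH in L12 (0.03 with DESeq2, 0.26 with library size only, -0.54 to 0.58 leaving out) and ERL1 in L12 (-0.14 with the length and GC correction, -0.07 to 0.83 leaving out). YDA was at 0.00 for leaf age with that correction. Depth limits SPCH, MUTE, SDD1, EPF2, BASL and ERL1 in old leaves, where 0 to 3 counts after mock left a decrease with ABA undetectable. For an increase the counting intervals reached up to 2.81-fold for SDD1, 3.6-fold for MUTE, 3.93-fold for EPF2, 9.32-fold for SPCH and 13.8-fold for ERL1.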
